A study of Mus musculus with 27 samples.

Results

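The genes described here are 10 core genes of the NF-kB system, the subunits Rela, Relb, Nfkb1 and Nfkb2 and the feedback inhibitors Nfkbia, Nfkbib, Nfkbid, Nfkbie, Nfkbiz and Tnfaip3, in CD11b+ cells sorted from mouse brain. They were taken by name, by matching the Ensembl identifiers of the count tables to gene symbols, and not by their values. The 10 genes are among 53412 identifiers in the table of the minocycline experiment and 55421 in that of the enrichment experiment. All 10 passed the filter on low counts in both tables, in which 14579 and 15921 genes were tested.

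CD11b is a surface integrin of microglia, the resident macrophages of the brain, and of other myeloid cells. The cells came from 2 regions, prefrontal cortex (PFC) and hippocampus (HC), of mice whose strain is labelled C57BJ6, and polyA RNA was sequenced with strand-specific libraries. The minocycline experiment held naive controls (NAIVE, 2 libraries in each region), mice given chronic unpredictable mild stress (CUMS, 2 in PFC and 3 in HC) and mice given CUMS and minocycline, a tetracycline antibiotic (CUMS_M, 3 in each region). The CUMS group of that experiment carries no mention of a vehicle. The enrichment experiment held mice given CUMS and vehicle (VEH) and mice given CUMS and environmental enrichment (EE), with 3 libraries per region and group, so every library of it came from stressed mice and none from a naive animal. The labels give no age, no sex and no dose, and whether replicates were separate animals is not said, so that the p-values here speak only of spread among samples.

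NF-kB is a family of transcription factors that act as dimers. In resting cells IkB proteins hold the dimers in the cytoplasm, and signals from Toll-like, interleukin-1 and TNF receptors lead the IKK kinases to mark the IkB proteins for destruction. Freed dimers switch on inflammatory genes and also the genes of their own inhibitors, a negative feedback that is best known for Nfkbia and Tnfaip3. In microglia the pathway drives the response to infection, injury and cell debris, and the mRNA of several inhibitors is known to rise quickly after stimulation of the cells.

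Among the subunits, Rela (ENSMUSG00000024927, chr19:5637483-5648130, plus strand, GRCm38) encodes p65, the main activating partner of the canonical pathway. Nfkb1 (ENSMUSG00000028163, chr3:135584655-135691547, minus strand) encodes p105, the precursor of p50, with which p65 pairs. Relb (ENSMUSG00000002983, chr7:19606217-19629438, minus strand) and Nfkb2 (ENSMUSG00000025225, chr19:46304320-46312385, plus strand), the precursor of p52, form the dimer of the non-canonical pathway. Among the inhibitors, Nfkbia (ENSMUSG00000021025, chr12:55489410-55492647, minus strand) encodes IkB-alpha, Nfkbib (ENSMUSG00000030595, chr7:28758251-28767512, minus strand) IkB-beta and Nfkbie (ENSMUSG00000023947, chr17:45555703-45563169, plus strand) IkB-epsilon, the classical cytoplasmic IkB proteins. Nfkbiz (ENSMUSG00000035356, chr16:55811375-55838899, minus strand) and Nfkbid (ENSMUSG00000036931, chr7:30421732-30428746, plus strand) encode the atypical nuclear proteins IkB-zeta and IkB-NS, which modulate NF-kB on DNA. Tnfaip3 (ENSMUSG00000019850, chr10:19000910-19015657, minus strand) encodes A20, a ubiquitin-editing enzyme that shuts off signalling above the IKK kinases. Exons of Nfkbib and Nfkb2 overlap other genes on the opposite strand over 16.41% and 18.11% of their bases, and the strand setting of the counting step is not given in the sources used here, so the counts of these 2 genes are less certain.

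Promoters are shown because feedback on the inhibitors is known to run through kB sites, the DNA motif bound by NF-kB dimers. RefSeq promoter windows (assembly GRCm38.p6, 250 bases before to 50 after an annotated start) were found for 7 of the 10 genes, in 12 windows (numbered within a gene), and none was found for Nfkbiz, Nfkb1 and Relb. The kB consensus, searched on both strands with overlapping matches counted, was present in 1480 of 32851 windows of the same length, or 4.51%. It was present in 7 of the 12 windows and in 5 of the 7 genes, Nfkbia, Nfkbid, Nfkbie, Tnfaip3 and Nfkb2, and these letters are not in the windows of Nfkbib and Rela. The following stretches lie outside annotated exons and are written 5′ to 3′ on the gene's own strand, with matches on either strand in capitals.
Nfkbia, chr12:55492648-55492897, minus strand: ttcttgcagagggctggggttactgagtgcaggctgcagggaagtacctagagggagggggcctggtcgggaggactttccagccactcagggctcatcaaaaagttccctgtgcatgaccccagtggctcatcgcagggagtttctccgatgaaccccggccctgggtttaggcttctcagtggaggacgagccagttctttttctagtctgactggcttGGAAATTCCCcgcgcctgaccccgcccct
Nfkbid, chr7:30422156-30422259, plus strand: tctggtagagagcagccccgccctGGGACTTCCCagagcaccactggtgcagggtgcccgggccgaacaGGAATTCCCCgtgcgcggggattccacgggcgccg
Nfkbie, chr17:45555569-45555628, plus strand: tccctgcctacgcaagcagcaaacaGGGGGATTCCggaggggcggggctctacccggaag
Tnfaip3, chr10:19015411-19015447, minus strand: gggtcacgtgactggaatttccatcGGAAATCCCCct
The match of Nfkbia lies 29 to 20 bases before the start and reads on the antisense strand. Nfkbid holds 1 match on each strand, 226 to 217 and 181 to 172 bases before the start of its window 2. The match of Nfkbie lies 106 to 97 bases before the start. Tnfaip3 holds a match 12 to 3 bases before the start of its window 2 and another, not printed, at 125 to 116 bases. The matches of Nfkb2 overlap annotated exons and are only placed on the map of kB matches, where its windows 2 and 3 overlap and share 1 match. A match is a stretch of letters and not a measured binding site.

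**Figure D1:**
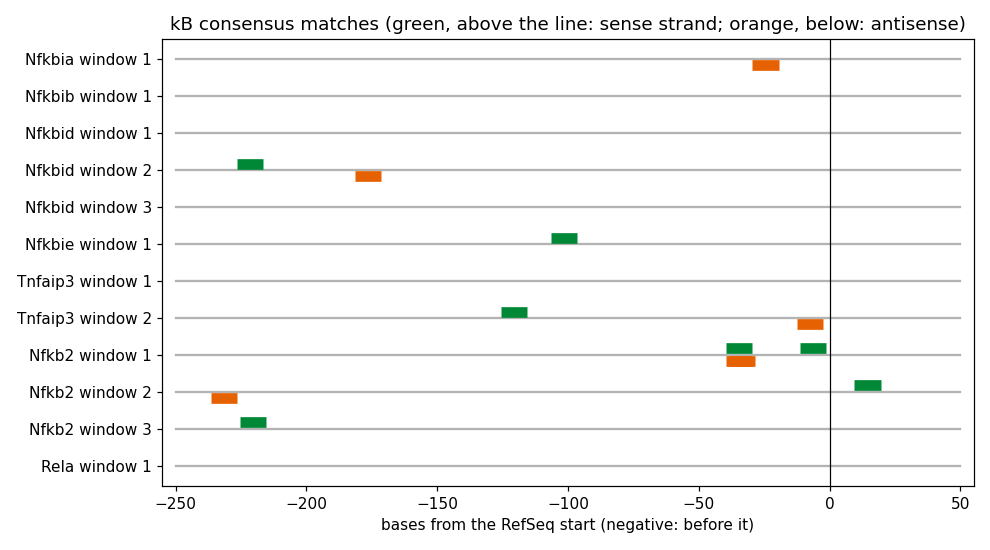
Position of kB consensus matches in the 12 RefSeq promoter windows of 7 genes, in bases from the annotated start (x axis), with sense matches above and antisense matches below each line. Windows of Nfkbia, Nfkbid, Nfkbie, Tnfaip3 and Nfkb2 hold matches, and those of Nfkbib and Rela hold none.

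The libraries held 7.87 to 12.4 M counts in PFC and 11.8 to 15.3 M in HC in the minocycline experiment, and 19.5 to 23.9 M in the enrichment experiment. The depth therefore differed between the regions of the minocycline experiment. Markers of microglia were present as the sort implies: all 12 were detected in every library, with a summed level of 36808 to 59399 CPM (counts scaled to library size, here by TMM). In these bulk samples fewer cells of a type and less RNA per cell cannot be told apart.

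Per kilobase of exon (RPKM), Nfkbia was the highest of the 10 genes, at 161 ± 57.0 RPKM over the 15 libraries of the minocycline experiment (SD over libraries of all groups) and 236 ± 104 over the 12 of the enrichment experiment. Rela followed in the minocycline experiment at 67.5 ± 5.69 RPKM, then Nfkbid at 44.3 ± 24.5 and Nfkbiz at 31.6 ± 14.2. In the enrichment experiment Nfkbid stood at 69.8 ± 26.8, Nfkbiz at 60.6 ± 27.7 and Rela at 59.9 ± 5.22 RPKM, 3 neighbours that differed by less than their spread. The SDs of Nfkbid and Rela, and those of Nfkbid and Nfkbiz, also overlapped in the minocycline experiment. Nfkb1 was at 22.0 ± 0.891 and 24.6 ± 2.06 RPKM, Tnfaip3 at 19.0 ± 5.41 and 31.2 ± 9.26, and Nfkbie at 18.6 ± 1.74 and 18.1 ± 2.11. Nfkbib (15.7 ± 1.59 and 15.4 ± 1.55), Nfkb2 (12.7 ± 1.35 and 11.9 ± 1.95) and Relb (9.81 ± 1.31 and 8.71 ± 1.34 RPKM) were the lowest. The tables were scaled separately, so levels are not compared between experiments. By this measure IkB-alpha mRNA stood at the top of the 10 genes in both experiments, and that of the non-canonical pair Relb and Nfkb2 at the bottom. The order depends on the length used, the union of all annotated exons. That length was 12061 bases for Nfkb1, 7226 for Tnfaip3 and 1610 for Nfkbia.

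The 10 genes split by how much they varied between libraries. In the minocycline experiment the ratio of the highest to the lowest library was 6.76 for Nfkbid, 4.67 for Nfkbiz, 3.23 for Nfkbia and 2.56 for Tnfaip3, and from 1.16 (Nfkb1) to 1.56 (Relb) for the other 6 genes. The enrichment experiment gave the ratios 5.47 for Nfkbiz, 5.11 for Nfkbia, 2.95 for Nfkbid and 2.84 for Tnfaip3, and 1.36 (Rela) to 1.86 (Nfkb2) for the others. Nfkbia, Nfkbid, Nfkbiz and Tnfaip3 are called the variable inhibitors below, a group named after these values were seen. Larger fold changes in them than in the other 6 genes, in comparisons of the same libraries, are not independent of that choice. The name is a label, since the nuclear proteins of Nfkbiz and Nfkbid modulate NF-kB on DNA, and inhibition was not measured. Much of the spread lay within groups. The library PFC EE 1 was the highest of the enrichment experiment for all 10 genes, and PFC CUMS_M 2 the highest of the minocycline experiment for 7 of 10.

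**Figure D2:**
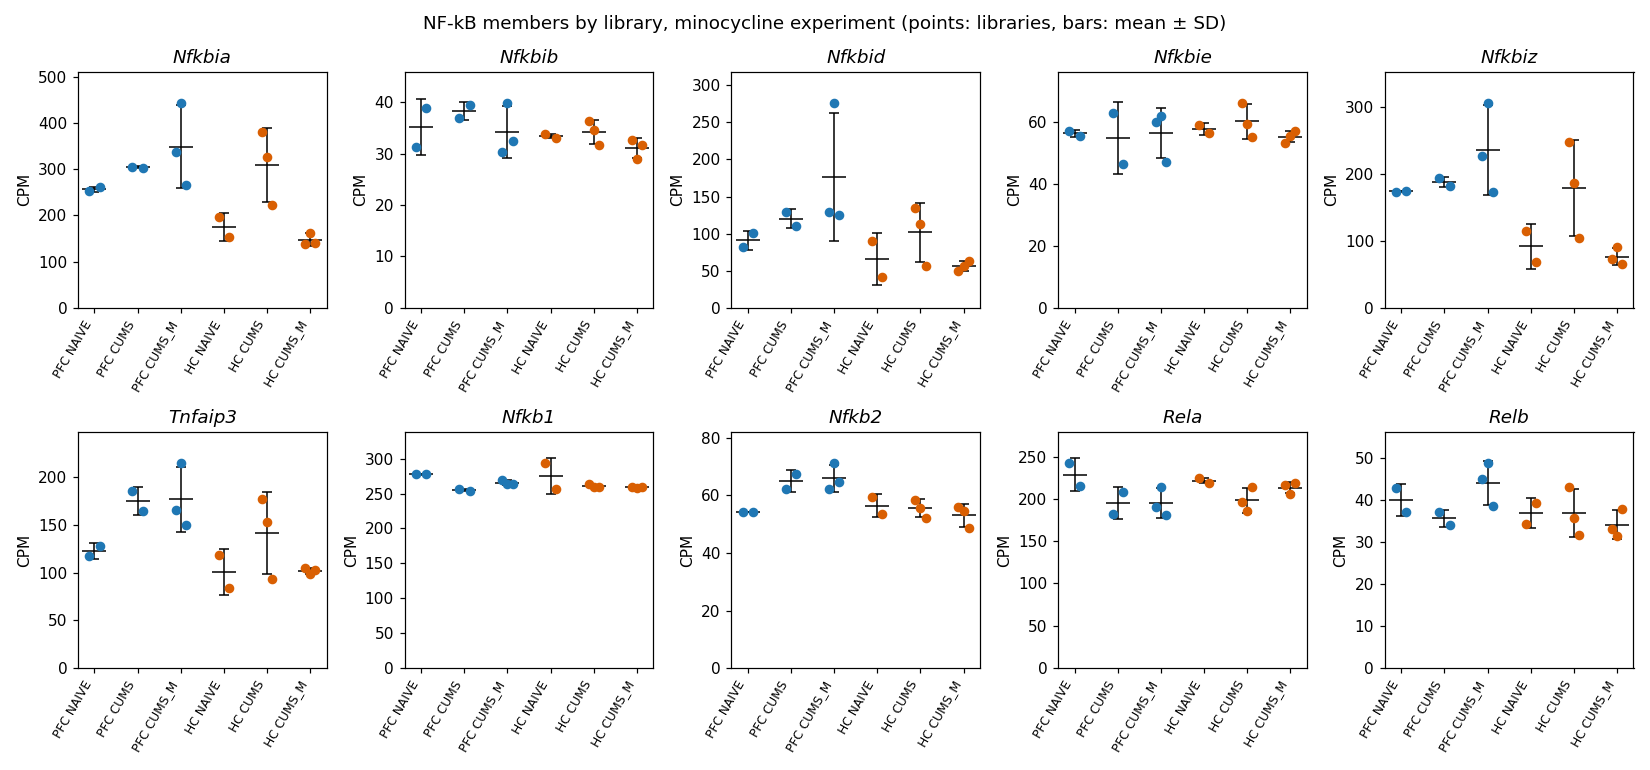
CPM (y axis, from 0) of the 10 genes in the 15 libraries of the minocycline experiment, with PFC in blue, HC in orange and bars at the group mean ± SD. Nfkbia and Nfkbiz are low in all 3 HC CUMS_M libraries and in the HC NAIVE libraries, with overlapping ranges. Nfkb1 ranges only 1.16 times from its lowest to its highest library.

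Across the 15 libraries of the minocycline experiment the gene whose log2 CPM was most like that of Nfkbia, among all genes tested, was Nfkbiz (Pearson r = 0.980). The next were Dusp1 (0.966), Fos (0.963), Klf4 (0.957), Nr4a1 (0.951) and Btg2 (0.951), all immediate early genes. Nfkbid (0.906) and Tnfaip3 (0.898) ranked 30 and 34. Of the other genes, Nfkb2 had r = 0.692 with Nfkbia, Relb 0.591, Nfkbib 0.569 and Nfkbie 0.313. Lowest were Nfkb1, with r = 0.0523, and Rela, with r = -0.440. The r of Nfkbiz was 0.971 without HC CUMS_M 1 and HC CUMS_M 3, the libraries farthest from the median of Nfkbia, and Spearman's rho was 0.971 over all libraries. Over the 12 libraries of the enrichment experiment Nfkbia was most like Dnajb13 (0.974), Pim3 (0.972), Zswim4 (0.965), Tagap (0.962) and Osm (0.958), with Nfkbiz at 0.923 and Rela at 0.885. There Tnfaip3 was at 0.896, Nfkb2 at 0.883, Nfkb1 at 0.866, Nfkbid at 0.846 and Nfkbie at 0.837. Nfkbib was at 0.663 and Relb at 0.647. Rela itself was most like Themis2 (0.958), Rnf19b (0.941) and Mknk2 (0.925) in the enrichment experiment. These values describe libraries that share groups, regions and depth, and no test was made of them.

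The first comparison asked where the family differed between brain regions. In the minocycline experiment Nfkbia and Nfkbiz were lower in HC than in PFC, averaged over the 3 treatments. Nfkbia measured 253 and 261 CPM in PFC NAIVE, 306 and 303 in PFC CUMS, and 337, 444 and 265 in PFC CUMS_M. In HC it measured 196 and 154 CPM in NAIVE, 380, 326 and 223 in CUMS, and 138, 163 and 141 in CUMS_M. The regions overlapped because of HC CUMS 1 and HC CUMS 2, while HC CUMS 3 and all NAIVE and CUMS_M libraries of HC lay below every PFC library. The log2 fold change of HC over PFC was -0.59 ± 0.13 (SE), with an edgeR adjusted p of 0.0259.

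Nfkbiz, the nuclear IkB-zeta, followed the same order. It measured 173 and 174 CPM in PFC NAIVE, 193 and 182 in PFC CUMS, and 227, 306 and 173 in PFC CUMS_M. The HC libraries gave 115 and 68.2 CPM in NAIVE, 247, 186 and 104 in CUMS, and 72.8, 90.1 and 65.4 in CUMS_M. Again HC CUMS 1 and HC CUMS 2 reached the PFC range and the other 6 HC libraries lay below all PFC libraries. The log2 fold change was -0.87 ± 0.21, with an edgeR adjusted p of 0.0463.

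These were 2 of 10 genes called at an adjusted p under 0.05, both lower in HC, where 5.1% of all genes tested were called in either direction and 1.67% were called lower. The other variable inhibitors missed the threshold, Tnfaip3 at -0.46 ± 0.14 (edgeR adjusted p = 0.0795) and Nfkbid at -0.79 ± 0.27 (0.149). The 6 other genes lay between -0.16 (Nfkb2) and 0.05 (Nfkbie) on the log2 scale, with adjusted p from 0.18 to 0.967. The call of Nfkbia was lost without PFC CUMS 1 (0.0971), HC NAIVE 2 (0.0862), PFC CUMS 2 (0.0614), PFC NAIVE 1 (0.0569) or HC CUMS_M 1 (0.0527). That of Nfkbiz was lost with no filter on low counts (0.0579) and without any 1 of 12 of the 15 libraries, with adjusted p up to 0.139, and held without PFC CUMS_M 3 (0.0284), HC CUMS 1 (0.0269) or HC CUMS 3 (0.0349). With no filter on low counts Tnfaip3 was called (0.00021), an edgeR adjusted p below its unadjusted p in the filtered fit (0.00548), and the cause was not tested. The DESeq2 Wald test called all 4 variable inhibitors, Nfkbid at 0.0401, among 1173 of all genes.

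Within treatments, fits chosen after the data were seen gave different values. Nfkbia differed by -0.56 ± 0.25 between HC and PFC in NAIVE (edgeR adjusted p = 0.359), by 0.02 ± 0.23 in CUMS (1) and by -1.25 ± 0.21 in CUMS_M (0.0143). Nfkbiz gave -0.92 ± 0.40 (0.36), -0.07 ± 0.36 (1) and -1.63 ± 0.33 (0.064) in the same order. The regional difference was thus called for 1 of 10 genes in CUMS_M, where 0.94% of all genes were called, and for 0 in NAIVE (0.604%) and CUMS (0.37%).

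**Figure D3:**
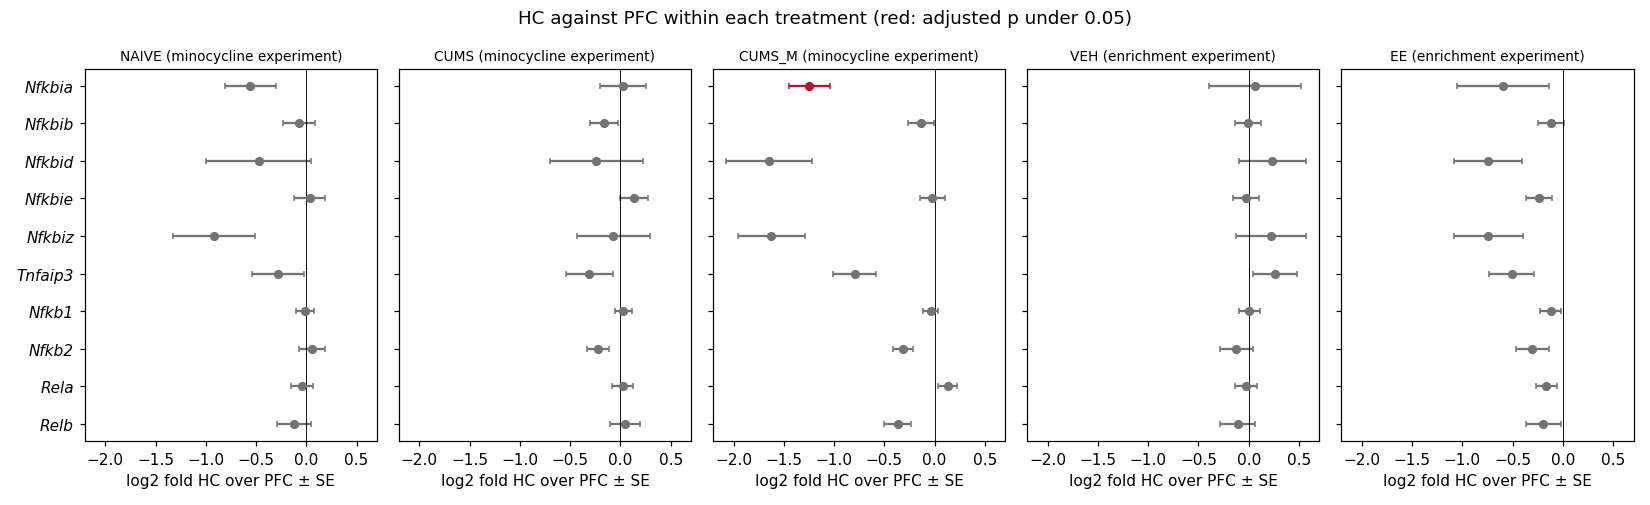
Log2 fold change of HC over PFC (x axis, ± SE) for the 10 genes within each treatment of both experiments, red at an adjusted p under 0.05. Nfkbia in CUMS_M, at -1.25, is the only red point, and in CUMS and VEH the variable inhibitors lie between -0.31 and 0.26.

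Summed markers of other cells spanned different but overlapping ranges in the regions. The summed level of the 6 choroid plexus markers was 736 to 2513 CPM in HC and 9.53 to 759 in PFC, with up to 4 of them at 0 in a PFC library. The 10 neutrophil markers summed to 861 to 2852 CPM in HC and 1283 to 4902 in PFC, and the 10 endothelial and mural markers to 136 to 272 and 88.7 to 221 CPM. Without PFC NAIVE 1 and PFC CUMS_M 3 together, the latter being the PFC library with the most choroid plexus signal, Nfkbia stood at -0.65 (edgeR adjusted p = 0.0116) and Nfkbiz at -0.93 (0.0636). The part of these cells in the result was not tested.

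Of 24 tested NF-kB target genes, from a list of 26, 2 were called lower in HC than in PFC and 0 higher. Over all genes 1.67% were called lower and 3.43% higher. The 2 were Il1a (-0.71 ± 0.14, edgeR adjusted p = 0.0106) and Il1b (-0.66 ± 0.15, 0.022), the genes of both interleukin-1 cytokines. The median of the list was -0.20, beside 0.02 over all genes tested. Among 17 kinases and adaptors upstream of NF-kB only Tab2, an adaptor of the kinase TAK1, was called (-0.24 ± 0.05, edgeR adjusted p = 0.0106). That is 1 of 17, near the share of 5.1% called over all genes. None of the 8 receptors, the 14 other negative regulators or the 3 other family members was called, and Rel, the c-Rel subunit, was at -0.28 (0.0574). Of 22 immediate early genes, a group quickly induced by many stimuli, all 22 were below 0 with a median of -0.52, while 53.9% of all genes were above it. Called lower, beside 1.67% of all genes, were 3 of the 22, Csrnp1, Dusp1 and Fosl2. The summed level of the 22 was 10640 to 28203 CPM in HC and 17448 to 31984 in PFC, and its part in the result was not tested.

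In the enrichment experiment no gene of the family was called between regions, as was no gene at all (0% of 15921 in the edgeR test, 0 in DESeq2, and 2.08% at an unadjusted p under 0.05). All 10 genes were below 0 in HC over PFC, where 47.1% of all genes were above it, and the values ran from -0.27 (Nfkbia) to -0.06 (Nfkb1). Within VEH the variable inhibitors lay from 0.06 to 0.26, and within EE from -0.74 to -0.51, all with edgeR adjusted p above 0.99.

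The next comparison asked what CUMS did. In PFC 0 of 10 genes were called against NAIVE, where 0.816% of all genes were, and none had an unadjusted p under 0.05, which 13.7% of all genes had. The DESeq2 Wald test also called 0 of the 10, among 348 of all genes. Tnfaip3 came nearest among the inhibitors, from 117 and 129 CPM in NAIVE to 186 and 165 in CUMS, a log2 fold change of 0.51 ± 0.26 (edgeR adjusted p = 0.417), and the groups did not overlap. Nfkb2 stood at 54.2 and 54.4 CPM in NAIVE and 62.2 and 67.6 in CUMS (0.26 ± 0.13, edgeR adjusted p = 0.374). Rela, at 243 and 215 CPM in NAIVE and 182 and 208 in CUMS, gave -0.23 ± 0.11 (edgeR adjusted p = 0.377). With 2 libraries a group, 24.2% of all genes were without overlap upwards and 19.4% downwards, beside 5 and 3 of the 10 genes. Summed astrocyte markers were 229 and 261 CPM in PFC NAIVE and 718 and 780 in PFC CUMS. Endothelial and mural markers summed to 94.4 to 108 CPM in NAIVE and 178 to 221 in CUMS. Neutrophil markers went the other way, from 3593 to 4902 CPM in NAIVE to between 2222 and 2801 in CUMS. The part of these cells in the values was not tested.

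In HC, again, 0 of 10 genes were called in CUMS against NAIVE, nor was any gene (0%), while 2.87% of all genes had an unadjusted p under 0.05. DESeq2 called 0 of the 10 and 1 of all genes. Nfkbia and Nfkbiz were the 2 of the 10 with so low an unadjusted p. Nfkbia stood at 196 and 154 CPM in NAIVE and 380, 326 and 223 in CUMS, without overlap (as for 1 of 10 genes upwards, beside 10.3% of all), a log2 fold change of 0.82 ± 0.23 (edgeR unadjusted p = 0.00434, adjusted p = 1.0). Nfkbiz, at 115 and 68.2 CPM in NAIVE and 247, 186 and 104 in CUMS, overlapped and gave 0.96 ± 0.38 (edgeR unadjusted p = 0.0293). Tnfaip3 and Nfkbid lay above 0 as well, and the other 6 genes between -0.16 and 0.06. All 22 immediate early genes were above 0, beside 48.5% of all genes, with a median of 0.58, and 0 of the 22 were called. All 10 astrocyte markers were above 0 (median 0.95, 8 with an unadjusted p under 0.05) and all 10 neutrophil markers below it (median -1.63, 1 such), with 0 called in either list. The part of these genes in the result was not tested. With no filter on low counts Nfkbia was called (edgeR adjusted p = 0.00744, among 17 of all genes). The region difference of the CUMS effect was called for 0 of 10 genes (0% of all, and 0 of the 10 among 27 genes by DESeq2), with 0 of the 10 at an unadjusted p under 0.05 beside 6.27% of all genes.

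The comparison of minocycline with CUMS alone in HC gave the family's largest fitted changes in that region. Nfkbia was at 380, 326 and 223 CPM in HC CUMS and at 138, 163 and 141 in HC CUMS_M. Each minocycline library lay below each CUMS library, and the CUMS libraries varied more. The log2 fold change was -1.07 ± 0.21 (edgeR unadjusted p = 0.00024, adjusted p = 0.555), which ranked 6 of 14579 genes by p. Nfkbiz was at 247, 186 and 104 CPM in CUMS and 72.8, 90.1 and 65.4 in CUMS_M, also without overlap (-1.23 ± 0.33, edgeR unadjusted p = 0.00428, adjusted p = 0.78). Tnfaip3, the gene of A20, was at 177, 153 and 93.8 CPM in CUMS and 105, 98.6 and 102 in CUMS_M, and its groups overlapped because HC CUMS 3 lay lowest (-0.47 ± 0.21, edgeR unadjusted p = 0.0445, adjusted p = 1).

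None of the 10 genes was called, where 0.00686% of all genes, that is 1 gene, were. At an unadjusted p under 0.05 there were 3 of the 10 genes, all lower, beside 1.53% of all genes lower, and 2 of the 10 lay lower without overlap, beside 4.27% of all. Nfkbid was at -0.85 ± 0.42, with overlap, while the 6 other genes lay between -0.13 (Nfkbib) and 0.11 (Rela). HC CUMS 3 was the library of its group with the lowest Nfkbia, nearest to CUMS_M, and the most choroid plexus signal (2513 CPM against 736 and 803). Without HC CUMS 3 Nfkbia was called at -1.26 (edgeR adjusted p = 0.0252). Over all leave-outs of 1 library Nfkbia ranged from -1.26 to -0.91 and was not called in all of them. Nfkbiz ranged from -1.51 to -0.94 and was called in none (edgeR adjusted p at least 0.117). The DESeq2 Wald test called Nfkbia (-1.08, adjusted p = 1.48e-06) and Nfkbiz (-1.24, 0.0221), among 36 of all genes. Nfkbia was also called with no filter on low counts (edgeR adjusted p = 2.41e-06, among 31 of all genes). That adjusted p is below even the unadjusted p of the filtered edgeR fit, and the cause was not tested. Without HC CUMS 1 Tnfaip3 moved to -0.29.

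Genes downstream and beside the family had values on the same side. The lists were chosen with earlier results of these data known. Of the 24 tested target genes 20 were below 0, with a median of -0.36, while 51.5% of all genes were above it. None was called (0), and 9 had an unadjusted p under 0.05, all lower, beside 1.53% of all genes lower. Cd83, a surface protein of activated myeloid cells, was at -0.52 ± 0.12, Il1b at -1.04 ± 0.24, Gadd45b at -1.72 ± 0.44 and Cxcl2, a neutrophil chemokine, at -2.02 ± 0.52, with edgeR adjusted p from 0.555 to 0.582. All 22 immediate early genes were below 0, with a median of -1.09 beside 0.01 over all genes, and 0 were called. An unadjusted p under 0.05 was found for 20 of the 22, beside 1.53% of all genes lower. The summed level of the 22 was 28203, 23773 and 15541 CPM in HC CUMS and 12491, 13538 and 10640 in HC CUMS_M. The order of the CUMS libraries in that sum is their order for Nfkbia. The part of these genes in the result was not tested. Markers of other cells lay off 0 as well, with 0 called in each list. All 10 neutrophil markers were above it (median 1.83, 3 with an unadjusted p under 0.05), and they summed to 1137, 868 and 861 CPM in HC CUMS and 947, 1562 and 2852 in HC CUMS_M. Of the 10 endothelial and mural markers 9 were below 0 (median -0.59, 3 such), and all 12 microglia markers lay above it (median 0.12, 3 such). The part of these cells in the result was not tested either. Kinases, receptors and other negative regulators had medians of -0.06, 0.12 and 0.03, with 0 called.

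**Figure D4:**
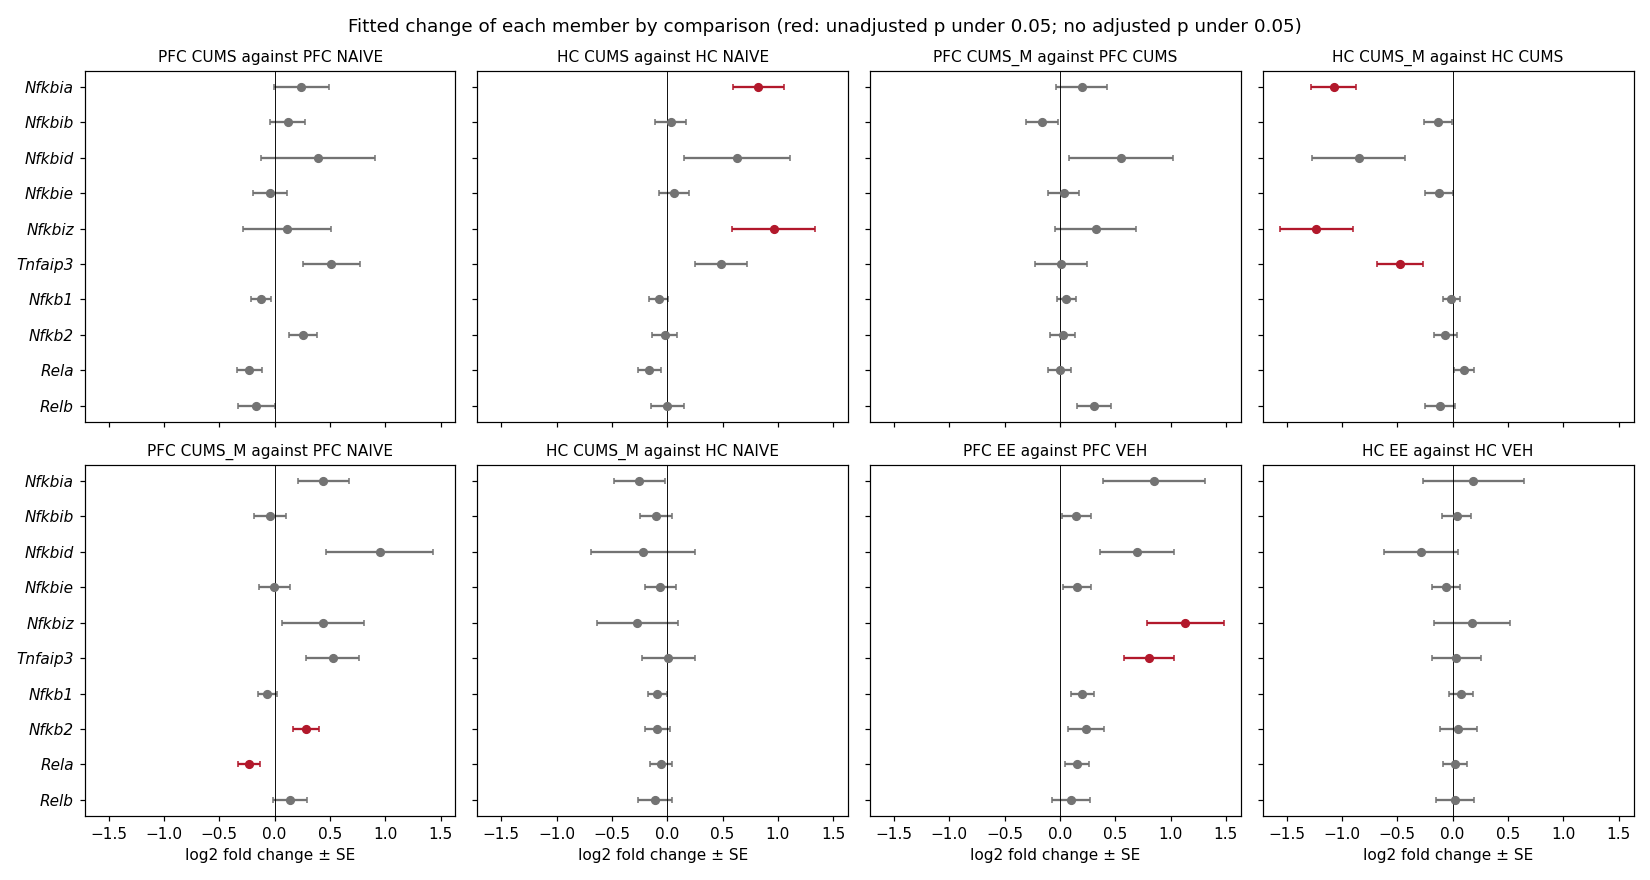
Log2 fold change (x axis, ± SE) of the 10 genes in the 8 comparisons within a region, red at an unadjusted p under 0.05, and no point has an adjusted p under 0.05. Nfkbia and Nfkbiz lie at -1.07 and -1.23 in HC CUMS_M against HC CUMS, and Nfkbiz at 1.13 in PFC EE against PFC VEH.

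In PFC the same comparison of CUMS_M with CUMS had 0 of 10 genes called, beside 0.0206% of all genes, and 0 at an unadjusted p under 0.05, beside 5.54%. DESeq2 called 0 of the 10, among 85 of all genes. Nfkbia was at 306 and 303 CPM in CUMS and 337, 444 and 265 in CUMS_M, with overlap (0.20 ± 0.23). Relb was at 37.2 and 34.2 CPM in CUMS and 45.1, 48.9 and 38.6 in CUMS_M, without overlap (0.31 ± 0.15, edgeR adjusted p = 0.932), as 2 of 10 genes and 8.98% of all were upwards. Summed astrocyte markers were 718 to 780 CPM in PFC CUMS and 301 to 482 in PFC CUMS_M. Oligodendrocyte markers summed to 646 to 678 and 252 to 379 CPM, and endothelial and mural markers to 178 to 221 and 88.7 to 110. Neutrophil sums overlapped, at 2222 to 2801 and 1283 to 4574 CPM. The part of these cells in the result was not tested. The test of the difference between regions gave -1.27 ± 0.31 for Nfkbia (edgeR unadjusted p = 0.00153, adjusted p = 0.999) and -1.56 ± 0.50 for Nfkbiz (unadjusted p = 0.0111). It called 0 of the 10 genes beside 0.00686% of all genes, and the DESeq2 Wald test called 1, Nfkbia (adjusted p = 0.0114), among 2 of all genes. The edgeR fit with no filter on low counts also called Nfkbia (0.000402), among 37 of all genes. Here too the adjusted p is below the unadjusted p of the filtered fit, and the cause was not tested.

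CUMS_M was also set against NAIVE in each region. In PFC 0 of 10 genes were called (0.0892% of all genes, and 0 of the 10 among 143 genes by DESeq2), and 2 had an unadjusted p under 0.05, beside 14% of all genes. Nfkb2 was at 54.2 and 54.4 CPM in NAIVE and 62.3, 71.3 and 64.5 in CUMS_M (0.28 ± 0.12, edgeR adjusted p = 0.302), and Rela at 243 and 215 against 190, 214 and 181 CPM (-0.23 ± 0.10, 0.326). Neither pair of groups overlapped, which held upwards for 4 of 10 genes (13.9% of all) and downwards for 2 (11.4%). The variable inhibitors lay from 0.44 (Nfkbiz) to 0.95 (Nfkbid) and none was called. Without PFC CUMS_M 2, where Nfkbid was at 277 CPM against 129 and 125 in the other libraries of its group, Nfkbid stood at 0.48, Nfkbia at 0.23 and Nfkbiz at 0.20, and without PFC NAIVE 1 Rela stood at -0.13. In HC all 10 values lay between -0.27 (Nfkbiz) and 0.01 (Tnfaip3), 0 were called (0% of all genes, and 0 of the 10 among 1 gene by DESeq2) and 0 had an unadjusted p under 0.05, beside 2.33% of all genes. The comparisons of CUMS with NAIVE, of CUMS_M with CUMS and of CUMS_M with NAIVE share libraries, so their values stand side by side and are not independent.

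**Figure D5:**
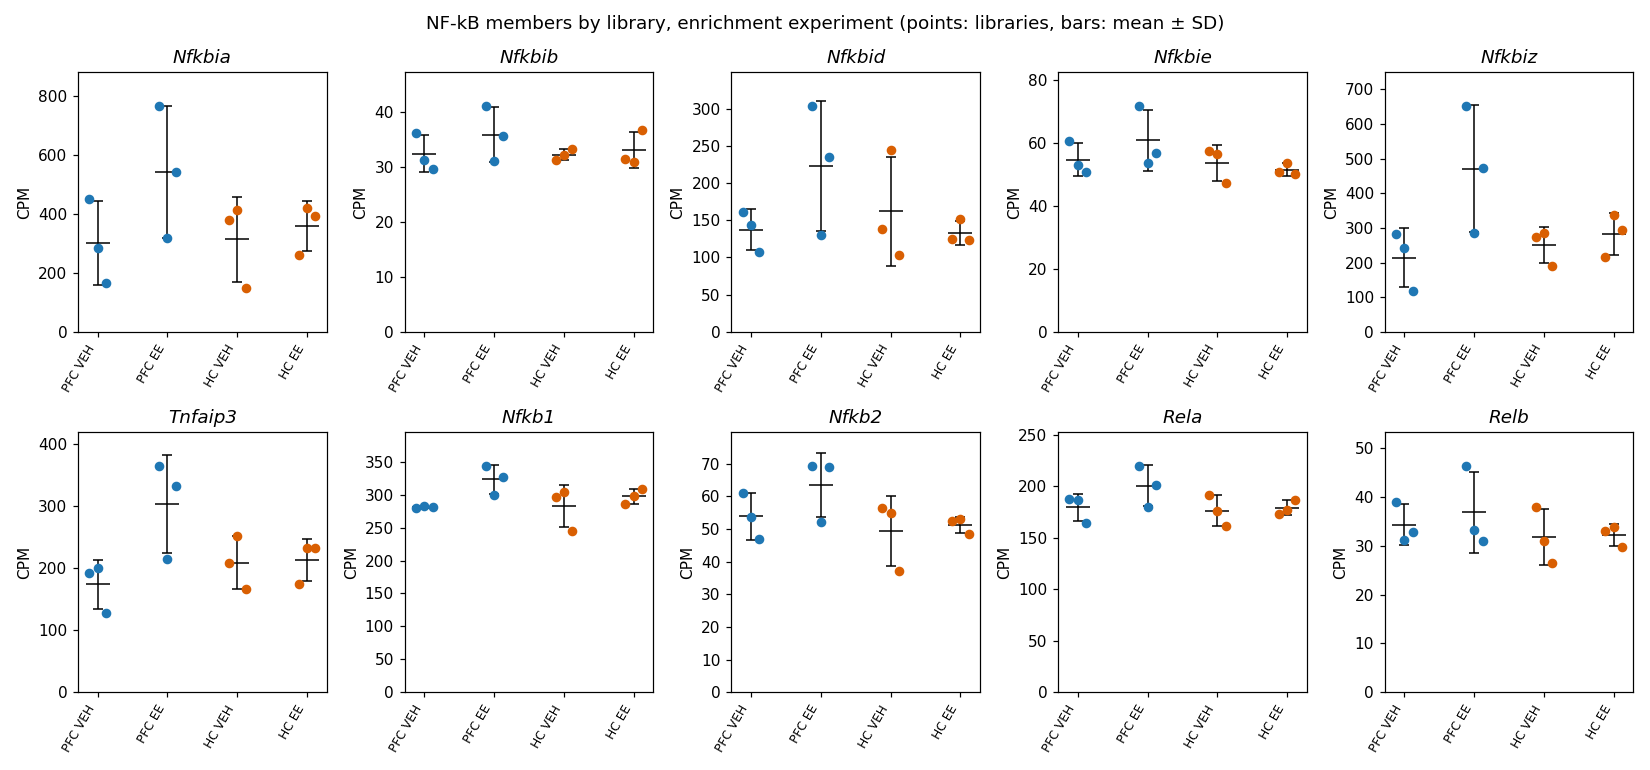
CPM (y axis, from 0) of the 10 genes in the 12 libraries of the enrichment experiment, with PFC in blue, HC in orange and bars at the group mean ± SD. The library PFC EE 1 is the highest for all 10 genes, and PFC EE 2 lies near the VEH libraries.

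The last comparison asked what enrichment added to stressed mice. In PFC all 10 genes were above 0 in EE against VEH, where 46.7% of all genes were. Relb changed sign in 1 of 11 other settings, to -0.10 with 1 library left out. Tnfaip3 was at 193, 201 and 129 CPM in VEH and 365, 215 and 333 in EE, without overlap (0.80 ± 0.22, edgeR unadjusted p = 0.00305, adjusted p = 0.986). Nfkbiz was at 283, 241 and 119 CPM in VEH and 653, 285 and 474 in EE, also without overlap, although the highest VEH library and the lowest EE library nearly met (1.13 ± 0.35, edgeR unadjusted p = 0.0077, adjusted p = 0.986). Nfkb1 was the remaining gene without overlap, at 280, 283 and 281 CPM in VEH and 344, 300 and 327 in EE (0.20 ± 0.10).

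Nfkbia overlapped, at 451, 286 and 167 CPM in VEH and 768, 317 and 543 in EE (0.85 ± 0.46, edgeR adjusted p = 0.986). Nfkbid also overlapped, at 162, 143 and 108 against 304, 130 and 235 CPM. The 6 genes other than the variable inhibitors lay between 0.10 (Relb) and 0.23 (Nfkb2). None of the 10 was called, nor was any gene (0%), DESeq2 called 0 of the 10 among 17 of all genes, and 2 of the 10 had an unadjusted p under 0.05, beside 4.25% of all genes. Without overlap and higher were 3 of 10, beside 4.8% of all. Without PFC EE 1 Tnfaip3 was at 0.65 and Nfkbiz at 0.82, with unadjusted p of 0.0193 and 0.0391 in edgeR, Nfkbia at 0.51 and Nfkbid at 0.41. Without PFC VEH 3 Nfkbia was at 0.56. Without overlap, Nfkbiz and Tnfaip3 would be higher in EE in any pairing of libraries. The labels give no pairs, and between libraries of the same replicate number Nfkbia was higher in EE in 3 of 3 and Nfkbid in 2. With that number as a block Tnfaip3 was at 0.82 and Nfkbiz at 1.18 (edgeR adjusted p = 0.976 for both), and none of the 10 was called.

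Target genes lay mostly on the same side in PFC. The lists were chosen with earlier results of these data known. Of 24 target genes tested 20 were above 0, beside 46.7% of all genes, with a median of 0.52, and 0 were called. At an unadjusted p under 0.05 there were 11, all higher, beside 2.52% of all genes higher. The 11 were led by Il1a (0.84 ± 0.18, edgeR adjusted p = 0.55) and Il1b (0.79 ± 0.18, 0.802). Bcl3, an atypical IkB protein that binds p50 and p52, was at 0.91 ± 0.32 (edgeR adjusted p = 0.986). All 22 immediate early genes were above 0, with a median of 0.69, and 0 were called. An unadjusted p under 0.05 was found for 17 of the 22, beside 2.52% of all genes higher. The summed level of the 22 was 29945, 26746 and 18244 CPM in VEH and 44260, 29050 and 43906 in EE. Neutrophil markers summed to 3725 CPM in PFC EE 1 and to 1369 to 2024 CPM in the other 5 PFC libraries. The part of either in the result was not tested.

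In HC the 10 genes lay between -0.28 (Nfkbid) and 0.19 (Nfkbia) in EE against VEH. Nfkbia was at 378, 415 and 150 CPM in VEH and 262, 420 and 393 in EE, and 0 genes of the family were without overlap, beside 9.66% of all genes upwards and 6.36% downwards. None was called (0% of all genes in edgeR, and 0 of the 10 among 441 genes by DESeq2) and none had an unadjusted p under 0.05, beside 10.4% of all genes. Summed choroid plexus markers were 6.16 to 299 CPM in HC VEH and 739 to 2636 in HC EE. Astrocyte markers summed to 438 to 554 and 651 to 889 CPM, and oligodendrocyte markers to 237 to 301 and 452 to 803. Neutrophil sums overlapped, at 1047 to 2886 and 1427 to 1831 CPM. The part of these cells in the values was not tested. The region difference of the EE effect was below 0 for all 10 genes, where 50% of all genes were above it. Relb changed sign in 2 of 16 other settings, up to 0.11. Tnfaip3 gave -0.77 ± 0.31 (edgeR unadjusted p = 0.028, adjusted p = 0.998), the only one of the 10 with an unadjusted p under 0.05, beside 4.21% of all genes, and 0 were called by edgeR (0% of all) or DESeq2.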

How the data were processed

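CD11b+ cells of PFC and HC were measured by polyA RNA-seq in 27 libraries. The deposited values are whole-number counts per gene, made by the authors with Trimmomatic 0.36, STAR 2.6.1b, Picard 2.17.1 and featureCounts 1.5.3 on mm10/GRCm38, per the submitters' processing notes, which also name DESeq2 1.24.0. Annotation release, strand setting and duplicate handling are not given in the sources used here. A count assigned to the wrong strand or to a duplicate would enter every value. Totals ran from 7.87 to 23.9 M counts per library, and no pair of libraries was identical (0).

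Identifiers were matched to GENCODE M21 (GRCm38): 53412 of 53412 and 55240 of 55421 were found. Each table was fitted alone with edgeR 4.0.16 in R 4.3.3 (TMM, filterByExpr with minimum count 10 and minimum total 15, robust quasi-likelihood F-test, 1 mean per group), with Benjamini-Hochberg adjustment over all tested genes and a threshold of 0.05. The SE is the fold change divided by the square root of F. CPM use TMM-scaled library sizes, and RPKM divide them by the union exon length. Likeness used log2 CPM with a prior count of 2. The genes most like Rela in the minocycline experiment are not reported here. All 10 genes are named in every contrast, with library values for those called or, where none was, at an unadjusted p under 0.05, and for others added after their values were seen. Members and lists were chosen with earlier results of these data known. The fit was tested on simulated data.

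Alternatives were DESeq2 1.42.0 (size factors, and its Wald test), no filter, the replicate number as a block, a fit restricted to the compared groups, and omission of each library in turn. For PFC EE and VEH, equal numbers deviated together (r = 0.359, 0.198 and 0.208, each above 0.1). The unequal numbers EE 2 and VEH 3 did so as well (r = 0.237). The labels give no pairs, so these r do not establish pairing, and the block is used only as an alternative. Figures were drawn with Python 3.11.15 and matplotlib 3.10.9.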

Additional observations from a re-analysis of the deposited data

How the results depend on the processing

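The count of called genes of the family was 0 under every setting run for PFC CUMS against NAIVE, PFC CUMS_M against CUMS, both CUMS_M against NAIVE comparisons, the region difference of the CUMS effect and all 4 comparisons of the enrichment experiment. For HC against PFC in the minocycline experiment it was 2, and 4 with the DESeq2 Wald test, 0 within NAIVE, 0 within CUMS, 1 within CUMS_M, 1 without both PFC NAIVE 1 and PFC CUMS_M 3, and 0 to 3 when 1 library was left out. For HC CUMS_M against CUMS it was 0, and 1 with no filter, 2 with DESeq2 and 0 to 1 when 1 library was left out. It went from 0 to 1 with no filter for HC CUMS against NAIVE, and from 0 to 1 with no filter and to 1 with DESeq2 for the region difference of the CUMS_M effect. Of the 30 region values within treatments of the minocycline experiment, chosen after the data were seen, 6 lay on the other side of 0 from the average, among them Nfkb2 in NAIVE (0.0573) and Nfkbia in CUMS (0.025), the 2 of these 6 with an unadjusted p under 0.05 in the average, as did 5 of 20 in the enrichment experiment. The cause of these changes was not tested. Of 130 values 48 changed sign under some setting, 2 of them among the 17 with an unadjusted p under 0.05.

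Over all genes, the counts called depended on the setting: 119 in PFC CUMS against NAIVE became 348 with DESeq2, 402 with no filter and 13 to 540 in the leave-outs, and 744 for HC against PFC became 1173, 1191 and 292 to 983. In HC EE against VEH 0 became 441 with DESeq2 and 278 with no filter, and in PFC EE against VEH 0 became 17 and 19. PFC CUMS_M gave 3 genes against CUMS and 13 against NAIVE, which became 85 and 143 with DESeq2 and 170 and 268 with no filter, with leave-outs up to 9 and 610. HC CUMS_M against CUMS gave 1, then 36 and 31. Depth limits the comparison of regions in the minocycline experiment, where every PFC library but 1 was below every HC library.

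With the replicate number as a block, 1 gene of the family was called in HC CUMS_M against CUMS, Nfkbia (edgeR adjusted p = 0.0135). Libraries of equal number did not deviate together there (r = -0.0472, 0.052 and -0.019). In PFC EE against VEH the block changed no call (0), and in the other comparisons it left the count of called genes of the family as it was.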
